A study of Mus musculus with 4 samples.

Results

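The clock genes Nfil3, Dbp, Tef, Hlf, Per1, Per2, Per3, Cry1, Nr1d1 and Arntl, and the 4 motifs whose names begin with NFIL3, DBP, HLF or TEF, were followed through single-nucleus accessible chromatin of mouse forebrain interneurons. They are 10 of 21911 annotated protein-coding genes and 4 of 579 motifs. The set was chosen by the share of motif counts falling to the NFIL3 motif, which had been seen leaning to cortex in earlier results of these data, and the genes were listed with it as its family and the clock around it. For these genes and motifs the comparison of hippocampus with cortex is therefore a description with no p-value, set beside the number of calls over all features. Their tests are those between kinds of nuclei, which that choice did not use.

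GFP+ nuclei were sorted from Dlx6aCre;Sun1/sfGFP mice at P30, with no treatment given in the labels, and profiled with the 10X Genomics single-nucleus ATAC assay, in which a transposase cuts open chromatin. There were 2 libraries from cortex and 2 from hippocampus, all of the same genotype and age. Dlx6aCre marks forebrain GABAergic neurons and their progenitors, and the Sun1/sfGFP allele then places GFP on the nuclear envelope. The sort thus aims at that lineage and not at the whole tissue, and a minority of nuclei gated by oligodendrocyte genes is described below. Animals per library and the hour of collection are not given in the sources used here. Time of day thus cannot be told apart from library. The p-values between kinds of nuclei measure how the difference within a library varies over these libraries, and not over animals.

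The libraries held 2355 and 4191 nuclei from cortex and 5576 and 3184 from hippocampus, in the order of their replicate numbers. Their totals ran from 32005984 to 117290059 cut sites. Cortex replicate 1 stood apart by depth, with a median of 47236 cut sites per nucleus against 7352 to 14917 in the others, and cortex replicate 2 by its peaks, which covered 33.4 Mb against 62.1 to 101 Mb. Any pair of libraries shared between 11 and 47 nuclear barcodes, at most 1.12% of the smaller library. Markers of GABAergic neurons (Gad1, Gad2, Slc32a1 and Dlx genes) held 926 to 1222 counts-per-million (CPM) of cut sites, and those of excitatory neurons held 32.8 to 59.2, although only 2 of those 6 genes had cut sites in the regions compared.

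The clock of a mammalian cell is a loop in which CLOCK and BMAL1, the product of Arntl, bind E-boxes and switch on the Per and Cry genes, whose proteins then repress CLOCK and BMAL1. REV-ERBα, the product of Nr1d1, represses Arntl in a linked loop. DBP, TEF and HLF, the PAR bZIP activators, and NFIL3, a bZIP repressor, compete for the same D-box sites in an output arm of the clock, so that motif counts cannot tell these factors apart.

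RefSeq promoters (GRCm38.p6, from 250 bases before to 50 after a start) were found for 9 of the 10 genes, all but Per2, and searched on both strands for TTACGTAA (the octamer the PAR bZIP factors prefer), TTATGTAA (a D-box), CACGTG (E-box), CACGTT (a variant E-box) and TGACGTCA (CRE). Of 32851 mouse promoters in the same table, 0.119%, 0.938%, 7.15%, 4.68% and 1.79% held these words, in that order. The stretches below are shown because they hold such a word upstream of a start of a gene described here. Each is written 5′ to 3′ on the strand of the gene with the words in capitals.
Tef, first start, chr15:81802526-81802571, plus strand: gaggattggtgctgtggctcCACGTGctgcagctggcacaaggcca
Tef, second start, chr15:81811256-81811301, plus strand: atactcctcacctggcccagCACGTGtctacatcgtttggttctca
Hlf, chr11:90390918-90390946, minus strand: tcggcgcgcggtgcgggcccTGACGTCAc
Per1, chr11:69098763-69098808, plus strand: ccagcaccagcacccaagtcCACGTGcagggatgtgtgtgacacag
Per3, chr4:151044796-151044890, minus strand: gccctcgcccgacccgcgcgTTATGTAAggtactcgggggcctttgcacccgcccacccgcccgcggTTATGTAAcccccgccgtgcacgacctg
Cry1, chr10:85185089-85185153, minus strand: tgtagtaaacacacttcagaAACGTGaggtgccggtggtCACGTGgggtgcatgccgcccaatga
Nr1d1, chr11:98775380-98775425, minus strand: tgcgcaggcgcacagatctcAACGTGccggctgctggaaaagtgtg

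Per3 was the gene with D-boxes in its promoter, 2 of them, beginning 205 and 158 bases before the start. Both Tef starts, which lie about 9 kb apart, carried an E-box, and so did the Cry1 promoter and the first of 2 Per1 promoters, which lies 3732 bp past the Per1 start used below. The second Per1 promoter, 4935 bp past it, held none of the words. The promoters of Nfil3, Dbp and Arntl held none of the 5 words. Over the wider common regions, defined below, Nfil3 held 3 D-boxes and 2 E-boxes, Dbp 4 E-boxes and Arntl 1 D-box, beside variant E-boxes in Nfil3 and Dbp. Near the Per1 start used below lay E-boxes at -332 and -148 bp and TTACGTAA at -722 bp. A match describes the letters and not a bound site.

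Each of the 10 genes had its start inside a peak of every library. Counts were compared over common regions, which are merged peaks that hold a peak of each library, and a gene's level is the sum over common regions touching its body or the 2 kb before it. Within a common region each library was counted only where its own peaks lie, so the bases counted differ between libraries, while the kinds of nuclei within a library share them. Reads of some genes cannot be separated from a neighbour. The single region of Dbp also covers Car11 and Sphk2, that of Nr1d1 also covers Thra, the Per3 regions lie within the Camta1 window, and 77.3% to 85.2% of the Per1 cut sites lie in a region shared with Vamp2. Per kb of peak, Tef carried the highest level of the 10 genes in each library, between 18.0 and 60.5 CPM per kb, in peaks called separately for each library.

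In cortex and hippocampus, all 10 genes had the lower mean in hippocampus, with a median log2 fold change of -0.20 against -0.01 over all 14622 genes tested. No gene of the whole table was called (edgeR quasi-likelihood test with Benjamini-Hochberg adjustment, 0% of genes). An unadjusted p below 0.05 was reached by 511 genes, and DESeq2 called 21. In sums over nuclei, a smaller share of nuclei with an open site and a lower opening per nucleus cannot be told apart.

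Among the PAR bZIP activators, Hlf differed most, at 125 and 78.3 TMM-normalized CPM of cut sites in cortex replicates 1 and 2 and at 54.9 and 60.1 in hippocampus. Both cortex libraries lay above both hippocampus libraries, and cortex replicate 1 stood highest. The means were 102 ± 33.1 and 57.5 ± 3.68 (SD, n = 2 each), a log2 fold change of -0.82 ± 0.23 (SE), which was -0.44 without cortex replicate 1. The order of the libraries was not the same in each measure, and the part of peak width was not tested. Over all peaks of each library Hlf held 102 and 71.6 CPM in cortex replicates 1 and 2 and 37.5 and 53.4 in hippocampus. The peaks of Hlf covered 11428 and 2349 bp in cortex and 4076 and 3810 bp in hippocampus, and per kb of peak Hlf held 8.90 and 30.5 CPM in cortex and 9.19 and 14.0 in hippocampus, so that cortex replicate 1 was then the lowest library. Hlf had no region at least 50% covered in every library, and among the 8 genes that had one the log2 fold changes ran from -0.20 to 0.04. Dbp held 213 and 265 in cortex against 218 and 232 in hippocampus, and Tef 176 and 223 against 185 and 213. In both genes the hippocampus libraries lay between those of cortex.

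Nfil3, the repressor, held 137 and 70.3 CPM in cortex and 80.8 and 99.6 in hippocampus. Its cortex libraries lay on either side of the hippocampus libraries, and the log2 fold change was -0.20 ± 0.32. Its direction turned with the library left out, to 0.36 without cortex replicate 1 and to -0.58 without cortex replicate 2.

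Among the Per and Cry repressors, Per1 held 309 and 357 in cortex and 326 and 256 in hippocampus, which overlapped. Per2 held 117 and 148 against 115 and 110, a narrow separation that rests mostly on cortex replicate 2. Per3 held 65.2 and 72.6 against 51.0 and 68.7. Cry1 was separated at 86.4 and 91.7 against 63.5 and 79.8, with a log2 fold change of -0.31 ± 0.18.

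In the linked loop, Nr1d1 held 164 and 202 in cortex and 171 and 189 in hippocampus, with a log2 fold change of -0.02. Arntl held 162 and 168 in cortex against 155 and 145 in hippocampus, with a log2 fold change of -0.14 ± 0.17. The regions thus did not overlap in 4 of the 10 genes (Hlf, Per2, Cry1 and Arntl), each higher in cortex, where 13.3% of all genes tested were separated in that direction. Without cortex replicate 2 the lower mean in hippocampus held in 7 of the 10 genes, with a median of -0.07. Of 20 further clock genes, 19 were tested, and 16 had the lower mean in hippocampus (median -0.16).

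**Figure D1:**
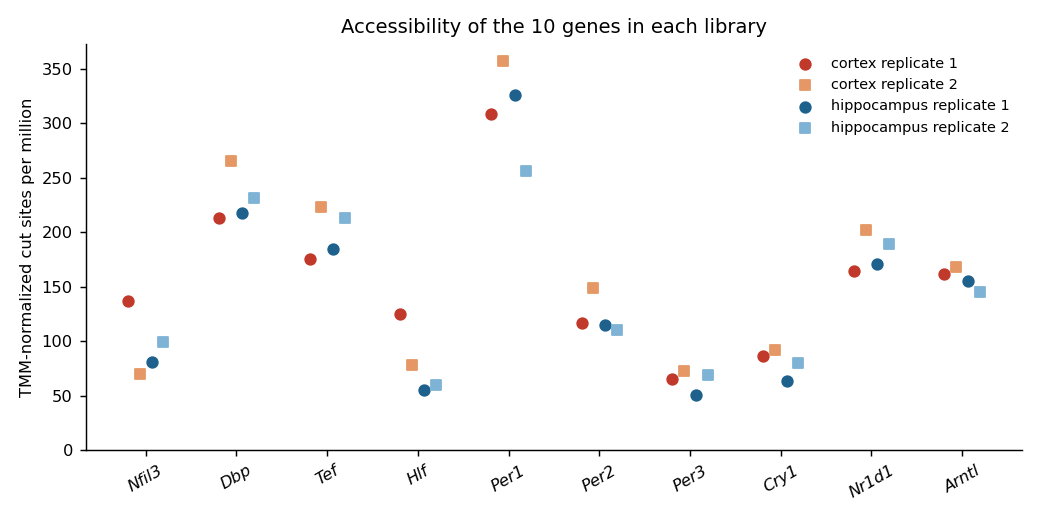
TMM-normalized CPM of cut sites in common regions (linear axis from 0) for each of the 10 genes, with 1 point per library (red and orange for cortex replicates 1 and 2, dark and light blue for hippocampus replicates 1 and 2). Hlf is the gene with both cortex points (125 and 78.3) well above both hippocampus points (54.9 and 60.1), while the Nfil3 cortex points (137 and 70.3) lie on both sides of hippocampus.

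The deposited motif counts leaned the same way for all 4 motifs, and cortex replicate 2 carried that lean. The NFIL3 motif held 428 and 755 CPM of all motif counts in cortex replicates 1 and 2 and 322 and 341 in hippocampus, so that both cortex libraries were higher, the second by more. The means were 592 ± 231 and 331 ± 13.7 (SD, n = 2 each), a log2 fold change of -0.84 ± 0.41 (SE). Separation with cortex higher was seen in 9.5% of all motifs, and the edgeR test called 0 of 579 motifs, or 0%. An unadjusted p below 0.05 was reached by 1 motif, and DESeq2 called 0.

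The activators' motifs were not separated by region. The DBP motif held 145 and 465 CPM in cortex and 130.4 and 235 in hippocampus. The HLF motif held 308 and 676 against 261 and 387, and the TEF motif 151 and 394 against 133 and 213. In each of the 3, cortex replicate 2 was the highest library and cortex replicate 1 lay between the hippocampus libraries. Without cortex replicate 2 only the NFIL3 motif stayed lower in hippocampus, at a log2 fold change of -0.37, and the other three turned, reaching 0.33 for DBP. The median over all motifs was -0.12 in the full comparison.

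The letters themselves did not show cortex replicate 2 in front. Peaks of that library holding TTACGTAA took 0.499% of its cut sites, against 0.719% in cortex replicate 1 and 0.509% and 0.563% in hippocampus. Peaks holding TTATGTAA took 2.82% in cortex replicate 2, the lowest of the libraries, against 6.03% in cortex replicate 1 and 4.22% and 3.95% in hippocampus. The low shares were not particular to these words. E-box peaks took 20.7% in cortex replicate 2 against 22.6% to 26.7% in the others, and variant E-box peaks 16.8% against 20.5% to 26.3%. CRE peaks took 4.21% there, against 3.26% to 4.19%. The peaks of cortex replicate 2 also covered the fewest bases (33.4 Mb). Over the common regions, each library being counted where its own peaks lie, the octamer share lay between 0.803% and 0.862% and the D-box share between 6.35% and 6.83%. The part of peak calling and motif scanning in the deposited motif shares was not tested.

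Some motifs of the related CEBP bZIP factors had identical counts. CEBPD and CEBPG had the same count in every library, and CEBPB and CEBPE the same count in 3 libraries. The NFIL3 motif held 1.45 to 2.95 times the counts of the DBP motif. Over the 12 sums of each library and kind of nucleus, the log2 level of the NFIL3 motif followed that of the HLF motif at a Pearson r of 0.91, TEF at 0.86 and DBP at 0.85. Among the motifs that followed it most closely were BHLHE23, GATA6, FOXC2 and FOS::JUNB, between 0.97 and 0.98, against a median of 0.48 over the 575 motifs outside the family. These points share libraries, depth and peak sets, and no test was made of them.

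**Figure D2:**
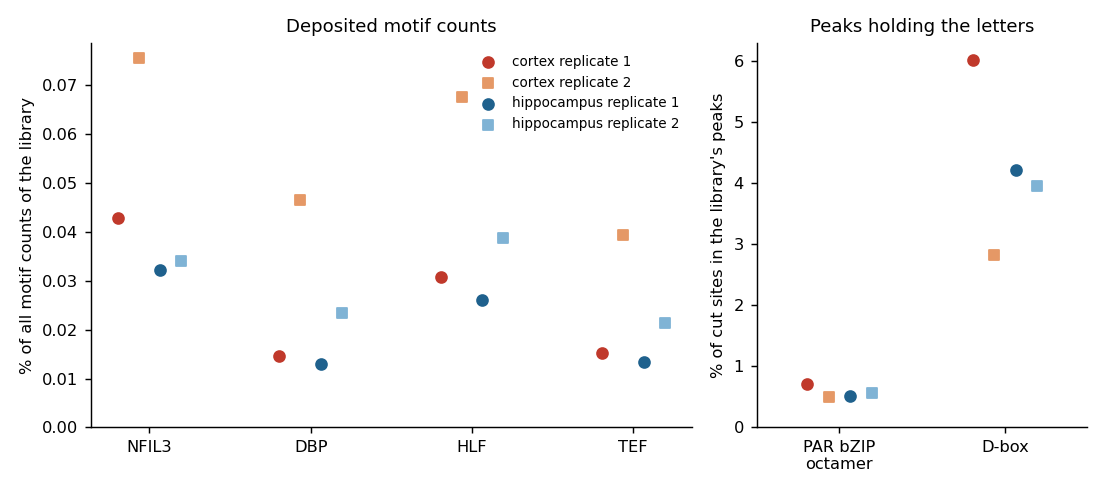
Left, the share of each library's motif counts (percent) taken by the NFIL3, DBP, HLF and TEF motifs; right, the share of cut sites in the library's own peaks (percent) lying in peaks that hold the PAR bZIP octamer or the D-box, with the same colors for libraries in both. Cortex replicate 2 (orange) is the highest library for all 4 deposited motifs, at 0.0755% for NFIL3, and the lowest for both sets of letters, at 0.499% and 2.82%.

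Nuclei were then divided within each library by marker genes. MGE-gated nuclei are those whose cut sites at genes of interneurons born in the medial ganglionic eminence (such as Lhx6, Sox6 and Sst) led those at genes of the caudal ganglionic eminence, CGE (such as Adarb2, Prox1 and Vip), and CGE-gated nuclei have the reverse. Of the lists, 6 of 8 MGE genes and 7 of 8 CGE genes had cut sites. The MGE list held 627 to 944 CPM in MGE-gated and 85.5 to 290 in CGE-gated nuclei, as the gates require. There were 629, 916, 1205 and 750 MGE-gated nuclei and 516, 785, 1045 and 686 CGE-gated nuclei in cortex replicates 1 and 2 and hippocampus replicates 1 and 2. Nuclei that lay close to the limit, within 0.25 of it on a log2 scale, were 16.9% to 18.9% of each library.

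Tef and Dbp, both PAR bZIP activators, were lower in MGE-gated nuclei. They were the 2 of 10 genes called, near the share over all genes (18.8% of 14594), and 8.38% of all genes were called in that direction. Tef held 157, 215, 169 and 188 CPM in MGE-gated nuclei of cortex replicates 1 and 2 and hippocampus replicates 1 and 2, and 199, 239, 198 and 221 in CGE-gated nuclei of the same libraries. It was lower in 4 of 4 libraries, with a log2 fold change of -0.24 ± 0.05 (SE, adjusted p = 0.0017). The call held with each library left out in turn (adjusted p of 0.0020 to 0.0128). Dbp, whose single region also covers Car11 and Sphk2, held 208, 253, 210.2 and 224 against 224, 282, 243 and 243. It was lower in 4 of 4 libraries by a smaller step of -0.15 ± 0.04 (adjusted p = 0.0253), which cannot be assigned to Dbp alone. Its call was lost without cortex replicate 2 (adjusted p = 0.0877), hippocampus replicate 1 (0.130) or hippocampus replicate 2 (0.0737). With gates set on counts thinned to 3000 cut sites per nucleus, which left out 0 to 760 shallower nuclei of a library and did not thin the sums, neither gene was called, at -0.13 for Tef (adjusted p = 0.0726) and -0.06 for Dbp (0.408). CGE-gated nuclei were the shallower of the pair, with medians of 7533 to 40798 cut sites against 8006.5 to 50212.

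The other 8 genes were not called, and their log2 fold changes ran from -0.12 for Per3 and Per1 to 0.05 for Per2. Hlf stood at 0.02 ± 0.06 and Arntl at 0.00 ± 0.05, and whether these differ from Tef and Dbp was not tested. In the list of 20 further clock genes, 2 of 19 tested were higher in MGE-gated nuclei, near the share over all genes (10.4%), Clock, the partner of BMAL1, at 0.22 ± 0.07 (adjusted p = 0.0423) and the casein kinase gene Csnk1e at 0.18 ± 0.06 (0.0354). Another 3 were lower, where 8.38% of all genes were, the ubiquitin ligase genes Fbxl21 at -0.34 ± 0.09 (0.0182) and Btrc at -0.16 ± 0.05 (0.0303), and the kinase gene Gsk3b at -0.13 ± 0.04 (0.0405). None of the 4 motifs was called, where 29.9% of motifs were, and NFIL3 lay nearest, higher in MGE-gated nuclei in 4 of 4 libraries by 0.04 ± 0.01 (adjusted p = 0.0514), a step that DESeq2 called (adjusted p = 0.0072).

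Single regions gave the position of these steps. Over the 46698 common regions, scaled as the genes were, 26.9% were called between MGE- and CGE-gated nuclei. Of the 22 regions of the 10 genes 5 were called, which is not above that share. Both Tef starts were lower in MGE-gated nuclei. The region at the first start (chr15:81801912-81804637) held 57.0, 86.0, 68.7 and 71.6 CPM in MGE-gated nuclei against 77.0, 94.7, 84.4 and 84.6 in CGE-gated nuclei, a log2 fold change of -0.29 ± 0.06 (adjusted p = 0.0048). The region at the second start (chr15:81810002-81812988), in the gene body, changed by -0.21 ± 0.05 (0.0056). Both were called with each library left out. Regions holding a gene start had a median of -0.02 in all, with 6.30% called lower and 4.41% called higher in MGE-gated nuclei.

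Per2 and Nfil3 each had an internal region that went the other way. A region inside Per2, 13.5 kb past its start (chr1:91445063-91446583), held 25.2, 28.2, 24.9 and 24.7 in MGE-gated nuclei against 17.6, 23.5, 16.4 and 12.3 in CGE-gated nuclei, so that each MGE-gated sum lay above each CGE-gated sum. The log2 fold change was 0.59 ± 0.14 (adjusted p = 0.0100), and the call was lost without hippocampus replicate 2 (0.0628). The Per2 start region stood at -0.10 ± 0.05 (adjusted p = 0.136). A region near the 3′ end of Nfil3 (chr13:52968040-52969317), 12.4 kb past its start, held 17.5, 0.571, 15.9 and 6.43 against 9.80, 0.535, 9.60 and 3.33. The peak of cortex replicate 2 there covers 37 bp, against 1278, 1095 and 416 bp in the others, so levels are to be compared within a library. The region was higher in MGE-gated nuclei in 4 of 4 libraries at 0.79 ± 0.21 (0.0163) and lost its call without hippocampus replicate 1 (0.0624) or 2 (0.0771). Other common regions without a gene start had a median of 0.08, with 7245 of 36245 called higher and 4206 called lower in MGE-gated nuclei.

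**Figure D3:**
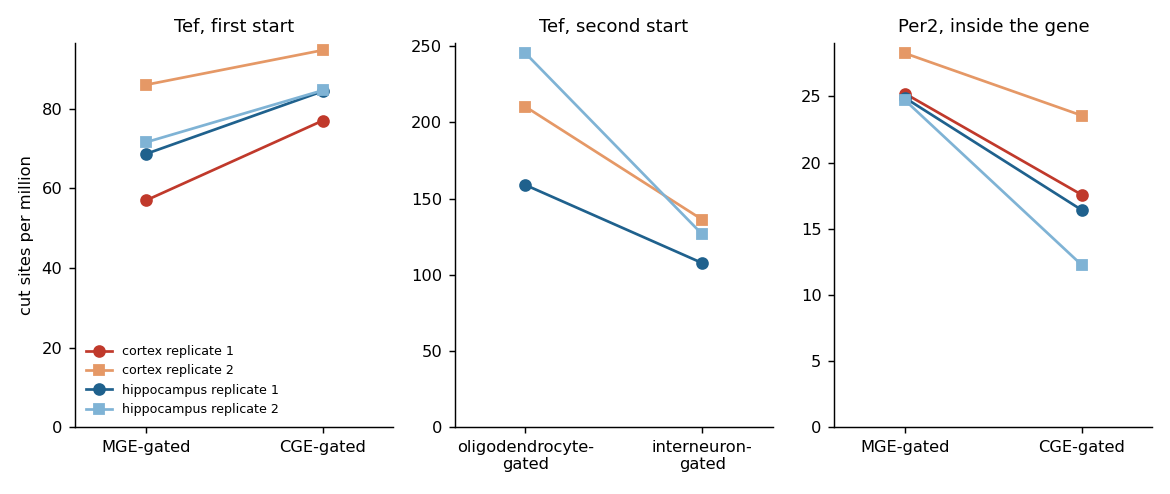
CPM of cut sites (linear axes from 0) in the region of the first Tef start and in the internal Per2 region for MGE- and CGE-gated nuclei, and in the region of the second Tef start for oligodendrocyte- and interneuron-gated nuclei; each line joins the sums of 1 library (red and orange for cortex, blue for hippocampus). Every line of the first Tef start rises to CGE-gated nuclei, every Per2 line falls, and the second Tef start is higher in oligodendrocyte-gated nuclei in 3 of 3 libraries.

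Whether the step between MGE- and CGE-gated nuclei itself differed between hippocampus and cortex was tested as an interaction. None of the 10 genes and none of the 4 motifs was called, where 0.48% of genes and 0% of motifs were. The smallest adjusted p among the genes was 0.681, for Per1, and that among the motifs was 0.785. An unadjusted p below 0.05 was reached by 81 motifs in edgeR, and DESeq2 called 5 motifs.

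A minority of nuclei scored high for genes of the oligodendrocyte lineage. The list holds Pdgfra and Cspg4, genes of precursors, beside myelin genes, so precursors and myelinating cells are not separated. How these nuclei came through the sort was not tested. They were gated by high cut sites over a list of oligodendrocyte genes that includes Mbp, Mog and Sox10, of which 8 of 12 had cut sites, and low cut sites at GABAergic markers. There were 105, 295 and 208 such nuclei in cortex replicate 2 and hippocampus replicates 1 and 2. Cortex replicate 1 had 44, under the minimum of 50 fixed for a sum, and was left out of this comparison, which set these nuclei against all MGE- or CGE-gated nuclei of the same 3 libraries. In these libraries the oligodendrocyte list held 1175 to 1564 CPM in the gate and the GABAergic list 130.2 to 138. The gated nuclei were shallow, with median cut sites of 4452, 4314 and 9364 against 8006.5, 14488 and 16255.5 in MGE-gated nuclei. Other glia were not removed from the gate: 4 of 5 microglial genes with cut sites held 302 to 354 CPM in it and 232 to 299 in MGE- or CGE-gated nuclei, and their part in the results was not tested.

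All 4 motifs were lower in oligodendrocyte-gated nuclei, where 36.8% of motifs were called and 22.5% were called in that direction. The NFIL3 motif held 716, 272 and 260.4 CPM in oligodendrocyte-gated nuclei of cortex replicate 2 and hippocampus replicates 1 and 2, against 759, 322 and 347 in interneuron-gated nuclei. The step was present in each library and smallest, relative to the level, in cortex replicate 2, with a log2 fold change of -0.25 ± 0.06 (adjusted p = 0.0255). The HLF motif changed by -0.22 ± 0.06 (0.0312), DBP by -0.17 ± 0.06 (0.0461) and TEF by -0.14 ± 0.05 (0.0438), each lower in 3 of 3 libraries, and the median over all motifs was -0.04. None of the 4 calls held without hippocampus replicate 1 (adjusted p of 0.0951 to 0.311) or without hippocampus replicate 2 (0.0796 to 0.369). Of the 5 CEBP motifs only CEBPA was called, lower by -0.19 ± 0.06 (0.0361).

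The D-box letters gave values of the same direction, as a description. Common regions holding TTATGTAA took 6.22%, 5.86% and 5.60% of the cut sites of oligodendrocyte-gated nuclei, against 6.41%, 6.52% and 6.41% in interneuron-gated nuclei of the same libraries. Among regions without a gene start the shares were 6.48%, 5.93% and 5.35% against 6.76%, 6.81% and 6.71%. The TTACGTAA shares did not share one direction, at 0.877%, 0.797% and 0.856% against 0.842%, 0.799% and 0.844%. E-box shares were higher in oligodendrocyte-gated nuclei of all 3 libraries, at 33.4%, 32.0% and 33.5% against 33.2%, 31.7% and 32.9%. The variant E-box went the same way, and CRE was mixed. Regions holding a D-box had a median GC of 48.0% against 50.4% without. The median log2 fold change was -0.81 over common regions without a gene start and 0.05 at gene starts. Whether the D-box shares differ beyond such general shifts was not tested.

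None of the 10 genes was called between oligodendrocyte- and interneuron-gated nuclei, where 7.52% of genes were. Tef came nearest, at 286, 238 and 342 CPM in oligodendrocyte-gated nuclei against 226, 184 and 205, higher in 3 of 3 libraries by 0.49 ± 0.15 (adjusted p = 0.0800). Hlf held 86.2, 36.7 and 20.1 against 79.7, 55.6 and 61.6, a log2 fold change of -0.70 ± 0.31 (0.169), with cortex replicate 2 going the other way. Its oligodendrocyte-gated sums were only 41, 37 and 35 cut sites. Without cortex replicate 2 both were called, Tef at 0.62 (0.0065) and Hlf at -1.06 (0.0085), and with gates set on thinned nuclei Tef was called at 0.63 (0.0014).

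The higher Tef values lay at its second start, given by RefSeq. Gene starts elsewhere were the outermost start of each annotated gene only, so this start was not among them. That region, at chr15:81810002-81812988, held 210.2, 159 and 245 in oligodendrocyte-gated nuclei and 136, 108 and 127 in interneuron-gated nuclei, with no overlap between them. Its log2 fold change was 0.72 ± 0.14 (adjusted p = 0.0197), and it was the 1 region called of the 22, where 3.16% of 46656 common regions were. The call was lost without hippocampus replicate 2 (0.186). The region of the first start stood at 75.7, 79.4 and 96.5 against 90.2, 76.5 and 78.2, or 0.06 ± 0.18 (0.847). The 2 starts of Tef, which were both lower in MGE- than in CGE-gated nuclei, thus had different values in oligodendrocyte-gated nuclei, and the difference between the starts was not tested.

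Among the further clock genes, 2 were higher in oligodendrocyte-gated nuclei, the nuclear receptor genes Rorb at 1.00 ± 0.20 (adjusted p = 0.0331) and Nr1d2, the relative of Nr1d1, at 0.67 ± 0.15 (0.0413). Another 2 were lower, Npas2, a relative of Clock, at -1.29 ± 0.23 (0.0232) and the nuclear receptor gene Rora at -0.81 ± 0.19 (0.0447). Over all genes 3.54% were called higher and 3.98% lower, and without hippocampus replicate 1 only 2 genes of the whole table were called, so that at most 2 of these 4 calls held. Arntl itself stood at -0.32 ± 0.16 (0.212).

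**Figure D4:**
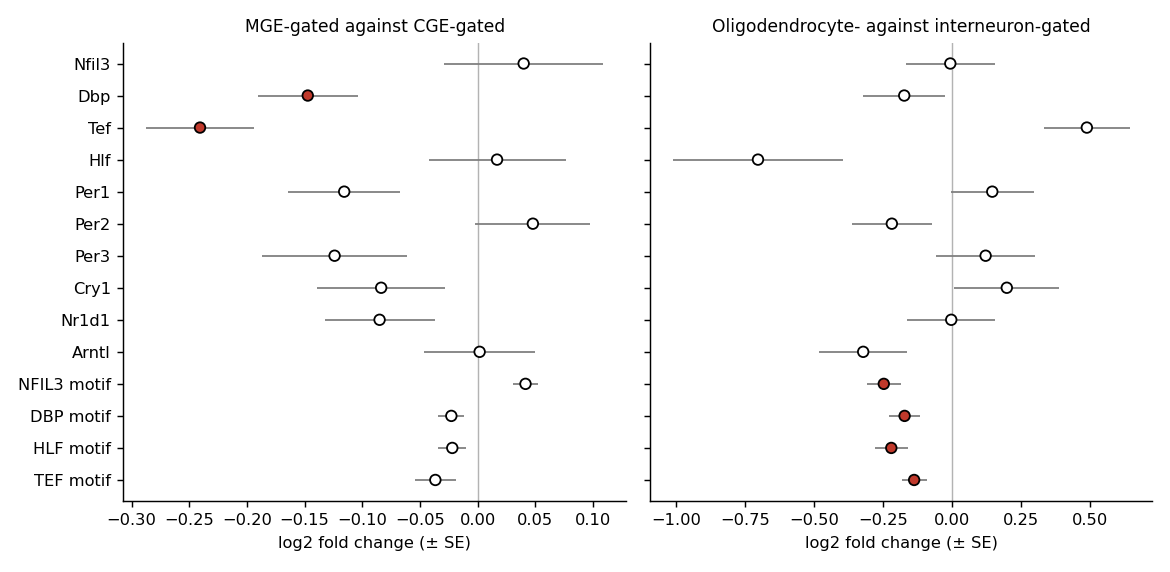
Log2 fold changes (± SE) of the 10 genes and 4 motifs between MGE- and CGE-gated nuclei (left, 4 libraries) and between oligodendrocyte- and interneuron-gated nuclei (right, 3 libraries), with calls at an adjusted p under 0.05 in red; the axes differ in scale. Tef and Dbp are called on the left at -0.24 and -0.15, and the 4 motifs on the right between -0.25 and -0.14.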

How the data were processed

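Per the labels' processing notes, the authors made the files with Cell Ranger ATAC 1.2.0 on GRCm38. Each library has a peak set of its own, and all peaks lie within the GRCm38 chromosomes. The deposited values are unnormalized counts of cut sites for every peak in every nucleus, and deposited counts for 579 motifs in every nucleus. The files do not state what a motif count is; it was taken to be the cut sites of all peaks with that motif. Further processing settings are not given in the sources used here.

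Overlapping peaks (1 bp or more) were joined, giving 185260 regions, of which 46698 were common. Counts were summed over nuclei, since nuclei are not replicates. Genes are those of GENCODE M21. A nucleus was gated when the log2 ratio of observed to expected cut sites at one marker list led the other by over 1, with the GABAergic score above -1; oligodendrocyte-gated nuclei had a score above 1 and a GABAergic score at or below -1. Doublets were not called. edgeR 4.0.16 in R 4.3.3 (robust quasi-likelihood F test, two-sided, filterByExpr, Benjamini-Hochberg over all features, threshold 0.05) was fitted to genes with TMM and to motifs with all motif counts as library size, with library as a block for gates. Regions were fitted in the same way with the scaling of the genes, a step added after seeing the data. Marker genes of the gates were left out of the gate fits. The SE given with a log2 fold change is the size of that change divided by the square root of its F statistic. DESeq2 1.42.0 was an alternative. The tests were checked on data simulated with known changes. For motifs the simulated fits were given known library sizes, so a shift of the total by changed motifs was not checked. Sums over all nuclei or over MGE- or CGE-gated nuclei are larger than those of oligodendrocyte-gated nuclei, which fall to 35 cut sites for Hlf, where counting error adds to the spread between libraries.

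The labels give same-numbered libraries only a shared number, and whether they also share a batch is not stated in the sources used here. The members, lists and tests were chosen with earlier results of these data known. All 10 genes and 4 motifs passed the filter on low counts in every comparison. Named are all members with their values, further clock genes that were called, motifs whose names begin with CEBP, and the 5 motifs most like NFIL3, of which 1 is not reported here.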

Additional observations from a re-analysis of the deposited data

How the results depend on the processing

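With 2 libraries per region, the call counts moved with single libraries, and 1 library left out changes both depth and peak sets; the cause was not tested. Leaving out each library in turn gave 0 to 365 genes and 0 to 100 motifs called between hippocampus and cortex, the highest counts without cortex replicate 1. For MGE- against CGE-gated nuclei it gave 1856 to 2209 genes, 54 to 146 motifs and 8094 to 11235 regions. For oligodendrocyte- against interneuron-gated nuclei it gave 2 to 4261 genes, 9 to 375 motifs and 686 to 10089 regions, the highest without cortex replicate 2 and the lowest without hippocampus replicate 1. For the interaction it gave 18 to 631 genes and 0 to 189 motifs. With 1 library left to a region, that library is assumed to vary like the others.

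DESeq2 called 21 genes between hippocampus and cortex, 1778 between MGE- and CGE-gated nuclei, and 9 genes and 5 motifs for the interaction, where DESeq2 size factors in edgeR gave 4 motifs. Peaks of each library in place of common regions gave 410 genes for oligodendrocyte-gated nuclei and 26 for the interaction, regions at least 50% covered gave 40 for the interaction, and regions within 2 kb of a start gave 1472 genes for MGE- against CGE-gated nuclei and 22 for the interaction. A lead or score of 0.5 gave 3724 genes for oligodendrocyte-gated nuclei and 23 for the interaction, and gates set on thinned nuclei gave 2024 for oligodendrocyte-gated nuclei. TMM gave 141 motifs for oligodendrocyte-gated nuclei, and TEF was then not called (adjusted p = 0.0942). Without the library as a block, 11 genes and 0 motifs were called between MGE- and CGE-gated nuclei and 270 genes and 0 motifs for oligodendrocyte-gated nuclei. A lead or score of 2 left too few oligodendrocyte-gated nuclei for a fit.

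The replicate block gave 0 genes and 0 motifs between hippocampus and cortex. Deviations of same-numbered libraries correlated at -0.16 over genes and 0.68 over motifs, and the crossed pairing, added after seeing the data, gave 201 genes.

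The sign changes in the gate comparisons were all of genes not called. Between MGE- and CGE-gated nuclei, Arntl stood at -0.020 with each library's own peaks, -0.063 with regions at least 50% covered, -0.054 within 2 kb of the start and -0.017 at a lead of 0.5, Hlf at -0.0079 with own peaks and -0.023 with thinned nuclei, and Per2 at -0.087 within 2 kb. Leaving out libraries gave -0.024 to 0.11 for Nfil3, -0.018 to 0.058 for Hlf and -0.025 to 0.039 for Arntl. In oligodendrocyte-gated nuclei, Nfil3 stood at 0.012 with DESeq2, 0.0080 with its size factors, 0.010 without the block, 0.034 with thinned nuclei, and -0.021 to 0.10 with libraries left out. Nr1d1 stood there at 0.010 with DESeq2 and with its size factors, 0.0096 without the block, 0.0022 with regions at least 50% covered, 0.070 with a score of 0.5, 0.062 with thinned nuclei, and -0.10 to 0.088 with libraries left out. With thinned nuclei Per1 stood at -0.020 and Per3 at -0.14, and within 2 kb of its first start Tef, at 0.49 otherwise, stood at -0.0052.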
